A study of Mus musculus with 12 samples.

Results

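Natural killer (NK) cells are lymphocytes that kill stressed or transformed cells without prior sensitization, and they weigh signals from activating and inhibitory receptors on their surface. Much of that receptor repertoire is encoded in 1 cluster of lectin-like genes, the NK gene complex, and several of these receptors are shared with T cells or with myeloid cells. NK cells depend on interleukin-15 for survival and release granzymes, perforin, interferon-gamma and chemokines when they are activated.

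The NK cell genes described here were 8 genes picked by symbol from the 55401 rows of an FPKM table. They were 4 lectin-like receptors and receptor partners of the NK gene complex (Klrb1c, Klrd1, Klrk1 and Klre1), the activating receptor gene Ncr1, the granule membrane protein gene Nkg7, the chemokine gene Xcl1 and Il2rb, the beta chain that interleukin-2 and interleukin-15 receptors share. Each of the 8 symbols matched 1 row, and all 8 passed the filter on low values, which left 15504 genes for testing.

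The tissue was bulk orthotopic breast tumor grown from 4T1, a mouse mammary carcinoma line, in Balb/c mice. The study compared the fusion protein with each of its components, and the question here is how the NK cell genes stood under each. The 12 tumor samples fell into 4 groups of 3, with 1 library per sample: a control isotype antibody (IgG1-Fc, replicates 4, 5 and 7), recombinant IL10-Fc protein (IL-10-Fc, replicates 2, 4 and 7), a CSF1R antibody (aCSF1R, replicates 4, 6 and 8) and the IL10/CSF1R fusion protein BF10 (replicates 3, 6 and 7), in which the antibody carries interleukin-10. Dosing began when tumors reached 100 mm3, and the labels give 6 doses, while the series text and the study's methods give fewer, so the number is uncertain. The mice were 6 to 8 weeks old when obtained, and their age at tumor collection was not given in the sources used here. All groups carried the same tumor line, and the carcinoma cells, stroma and every infiltrating leukocyte were sequenced together, so fewer cells of a type and less RNA per cell cannot be told apart.

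Depth, read from the size of a single-read step in the low values, was about 30900000 to 35800000 reads per library. At that depth the lowest value of a member rested on an estimated 14 reads for Klrb1c, 15 for Xcl1, 21 for Klre1, 28 for Ncr1, 70 for Klrk1, 76 for Klrd1, 115 for Nkg7 and 211 for Il2rb, so counting error alone was about 26.7% for the lowest Klrb1c value and 6.9% for the lowest Il2rb value. The libraries fell into 2 sets that cross the treatments. The deposited values summed to over 700000 in 5 libraries (control 4 and 7, IL-10-Fc 7, aCSF1R 8 and BF10 6, called higher-sum) and to less in the other 7 (lower-sum), and 59.2% of tested genes differed between the sets once groups were accounted for. Mitochondrial transcripts took 5.90 to 9.26% of the higher-sum and 3.14 to 3.96% of the lower-sum libraries. The control group held 2 higher-sum libraries and each other group held 1.

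The members are protein-coding genes of the mouse genome GRCm38, and their values sum over annotated exons. On chromosome 6, within the NK gene complex, Klrb1c spans 128778485 to 128789215 on the minus strand, Klre1 129577905 to 129585827 on the plus strand, Klrd1 129591782 to 129598775 on the plus strand and Klrk1 129610323 to 129623864 on the minus strand. On chromosome 7, Ncr1 spans 4337724 to 4345164 and Nkg7 43437073 to 43438249, both on the plus strand. Xcl1 lies on chromosome 1 from 164931644 to 164935527 and Il2rb on chromosome 15 from 78479256 to 78495271, both on the minus strand. Klrb1c overlaps another gene of the same strand, Gm44511, so reads from their shared stretch could have been assigned to either, and the Klrb1c values are uncertain to that extent. By replicate number, Gm44511 was 5.65, 1.89 and 4.13 FPKM in control and 0.96, 0.94 and 2.27 in IL-10-Fc tumors. It was 0.55, 0.14 and 0 FPKM in aCSF1R and 0.57, 2.93 and 2.5 in BF10 tumors. Its part in the Klrb1c differences was not tested.

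RefSeq promoter windows for GRCm38.p6, here the 250 bases before a transcription start, were matched for 6 of the 8 members (Ncr1, Klrb1c, Klrk1, Klre1, Nkg7 and Xcl1) with 8 windows, since Ncr1 and Klre1 have more than 1 annotated start. By the gene spans given above, the Klrb1c and Klre1 windows lie inside their genes, and those of Nkg7 and Xcl1 partly so. The windows of Ncr1 and Klrk1 are shown because their levels took different courses over the treatments. Each runs 5′ to 3′ on the strand of its gene, and capitals mark the letters TGTGGT, the core of RUNX motifs, or TCACAC, a T-box motif, on either strand.
Ncr1, chr7:4337465-4337714, plus strand: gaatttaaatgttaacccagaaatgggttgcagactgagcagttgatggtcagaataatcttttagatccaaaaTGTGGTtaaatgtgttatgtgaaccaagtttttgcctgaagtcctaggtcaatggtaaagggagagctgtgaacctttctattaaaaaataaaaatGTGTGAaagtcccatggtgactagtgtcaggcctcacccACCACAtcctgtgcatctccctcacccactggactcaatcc
Klrk1, chr6:129623865-129624114, minus strand: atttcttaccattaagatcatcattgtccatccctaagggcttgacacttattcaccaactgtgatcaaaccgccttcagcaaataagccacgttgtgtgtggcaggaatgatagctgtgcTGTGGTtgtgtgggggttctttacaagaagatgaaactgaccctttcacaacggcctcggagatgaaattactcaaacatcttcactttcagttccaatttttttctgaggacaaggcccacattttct
Factors of the RUNX and T-box families are known regulators of lymphocyte genes. TGTGGT occurred in at least 1 window of all 6 matched members, against 14% of 32851 promoter windows of the same length, each counted once. TCACAC occurred in 4 of the 6 members (Ncr1, Klre1, Nkg7 and Xcl1), against 12.3% of windows. Klre1 held TGTGGT in 1 of its windows and TCACAC in another. A member with more than 1 window had more places to match than the single windows behind these shares. GAGGAAG, a motif of the myeloid and lymphoid factor PU.1, occurred in Klrb1c and Klre1, against 10.6% of windows, and the STAT5 motif TTCNNNGAA in Nkg7, against 7.02%. Both strands were searched, no match overlapped one of another motif, and these are matches of letters, not measured binding.

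Levels are given as TPM (the deposited FPKM values rescaled so that each library has an equal total), which is a scale per transcript length and allows levels of different genes to be set side by side. Differences are given on the log2(TPM + 1) scale, which understates the change of genes with low values. A gene was past the threshold at an adjusted p below 0.05 over all 15504 genes (limma, Benjamini-Hochberg) with a difference of at least 1.5-fold. All members were lowly to moderately expressed. Mean TPM over the 12 libraries was 12.5 for Nkg7, 9.67 for Klrd1, 7.77 for Il2rb, 7.33 for Klrk1, 4.23 for Ncr1 and for Xcl1, 1.56 for Klrb1c and 1.33 for Klre1. Between tumors Klrd1 was the least variable, with its highest value 1.80 times its lowest, and Ncr1 the most, at 12.7 times.

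**Figure D1:**
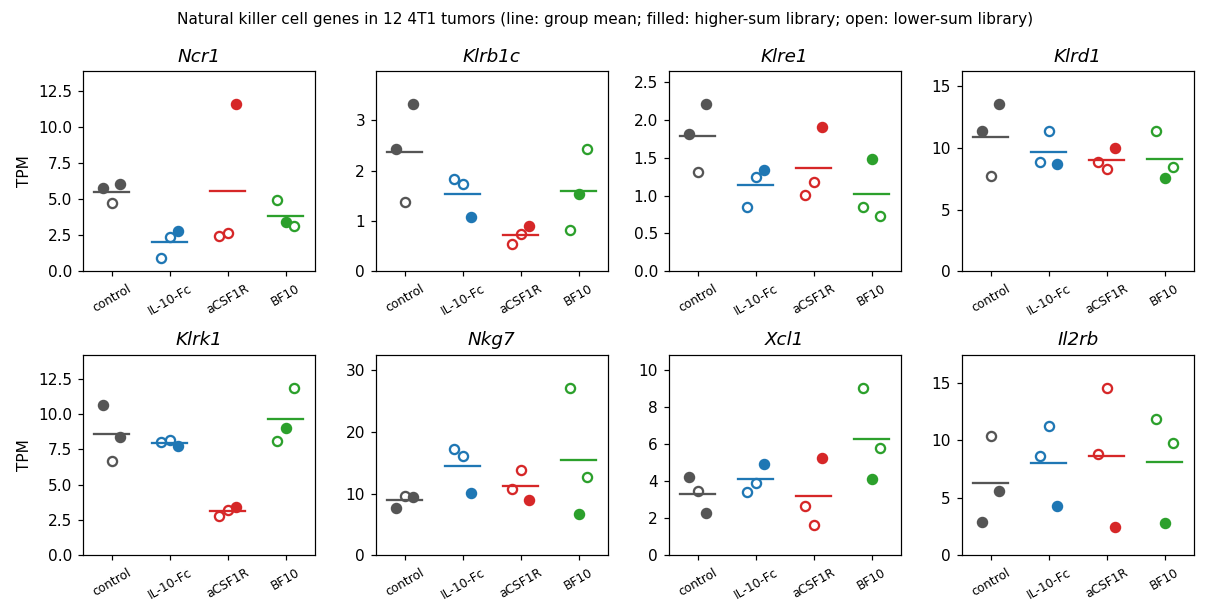
TPM of each of the 8 genes (vertical axes, starting at 0) in the 12 tumors by treatment group, with 1 point per library, a line at the group mean, and filled points for higher-sum libraries. Klrk1 sat at 2.80 to 3.40 TPM in the aCSF1R tumors and at 6.67 to 11.8 TPM in the others, while the groups of most other genes overlapped.

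Across the 9 comparisons made, 1 member passed the threshold in 1 comparison: Klrk1 was higher in BF10 than in aCSF1R tumors. With BF10 against control and BF10 against IL-10-Fc, no member passed, and 0 of the 15504 genes did (0%), although 234 genes (1.51%) and 42 genes (0.271%) had an unadjusted p below 0.05, none of them a member. With IL-10-Fc against control, 0 members passed against 0.00645% of all genes, with 1 member (Ncr1) at an unadjusted p below 0.05 beside 1.44% of genes. With aCSF1R against control, 0 members passed against 0.568% of all genes, with 2 members (Klrk1 and Klrb1c) at an unadjusted p below 0.05 beside 3.46%. With IL-10-Fc against aCSF1R, 0 members passed against 0.542% of all genes, with Klrk1 at an unadjusted p below 0.05 beside 3.56%. With BF10 against aCSF1R, 1 of 8 members passed against 0.735% of all genes, and 2 (Klrk1 and Xcl1) had an unadjusted p below 0.05 beside 4.26%. The average effect of interleukin-10 (BF10 and IL-10-Fc against aCSF1R and control) and that of the CSF1R antibody (BF10 and aCSF1R against IL-10-Fc and control) passed in 0 members, against 0.142% and 0.11% of all genes. Klrk1 was the 1 member with an unadjusted p below 0.05 in either (4.43% and 1.84% of genes), at 0.64 (limma adjusted p = 0.5) and -0.48 (adjusted p = 1).

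The members did not share a direction. The median log2 difference of the 8 members from control was -0.03 for BF10, with 4 higher and 4 lower, -0.10 for IL-10-Fc, with 3 higher and 5 lower, and -0.23 for aCSF1R, with 2 higher and 6 lower. The median of all tested genes was 0.32, 0.35 and 0.24 in the same 3 comparisons, which share the control libraries. With the library set as a term in the model, the median of all genes came to 0.07, 0.10 and 0.01. BF10 against aCSF1R, which does not involve the control tumors, gave a member median of 0.12 with 4 higher and 4 lower, beside 0.06 for all genes.

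**Figure D2:**
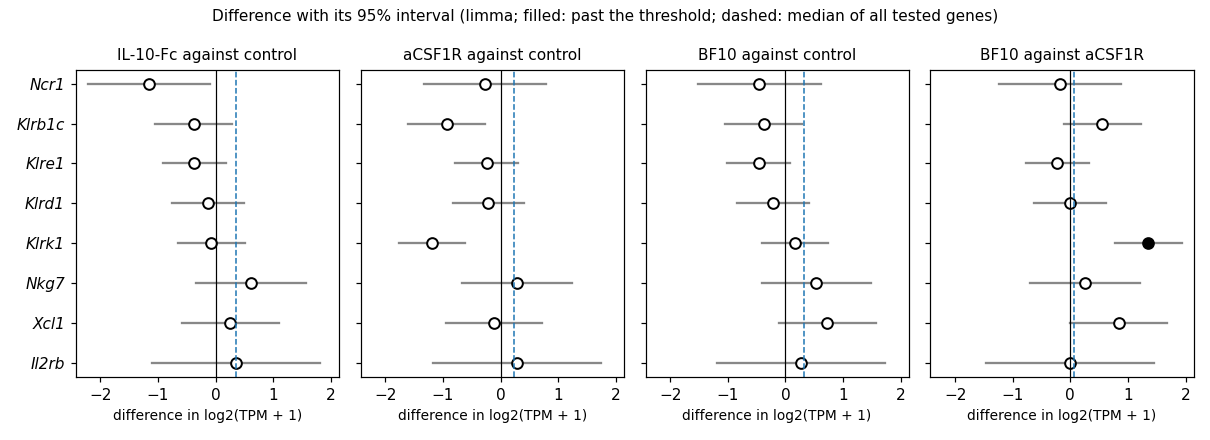
Difference in log2(TPM + 1) with its 95% interval (horizontal axes) for the 8 genes (rows) in 4 comparisons, from limma on all 12 libraries. The filled point is the Klrk1 difference of 1.35 between BF10 and aCSF1R tumors, and the dashed line is the median of all tested genes.

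Klrk1 encodes NKG2D, an activating receptor for stress-induced ligands that NK cells and activated CD8+ T cells carry. Its level was 10.6, 6.67 and 8.37 TPM in control tumors 4, 5 and 7, and 7.99, 8.14 and 7.73 TPM in IL-10-Fc tumors 2, 4 and 7. It was 2.80, 3.20 and 3.40 TPM in aCSF1R tumors 4, 6 and 8, and 8.10, 9.02 and 11.8 TPM in BF10 tumors 3, 6 and 7. All 3 aCSF1R tumors thus lay below all 9 others, which held for 1 of the 8 members and for 381 of the 15504 genes (2.46%). The group means were 8.56 ± 1.99 TPM (control), 7.95 ± 0.210 TPM (IL-10-Fc), 3.13 ± 0.306 TPM (aCSF1R) and 9.66 ± 1.95 TPM (BF10; SD, n = 3 each).

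The Klrk1 difference between BF10 and aCSF1R was 1.35 on the log2 scale (SE 0.26, limma adjusted p = 0.0445), which is 2.56-fold on the scale of TPM + 1. This call was marginal. Of the 12 fits without 1 of the libraries, the one without control 5 kept it and the other 11 lost it. The limma adjusted p was 0.0427 without control 5 and 0.0648 to 0.244 without any other library, with a difference of 1.21 to 1.46. Within the lower-sum libraries alone, 2 tumors per group, the difference was 1.44, and between the single higher-sum libraries of the same groups it was 1.19.

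Klrk1 missed the threshold in aCSF1R tumors against control and against IL-10-Fc. Against control the difference was -1.19 (SE 0.26, unadjusted p = 0.00085, limma adjusted p = 0.11), and for IL-10-Fc against aCSF1R it was 1.12 (SE 0.26, adjusted p = 0.148). With the library set as a term these became -1.16 and 1.12, with limma adjusted p of 0.0105 and 0.0102, where Klrk1 was the 1 member past the threshold beside 2.01% and 2.13% of all genes. The same term left the Klrk1 difference of BF10 from aCSF1R at 1.35 (limma adjusted p = 0.0022, 2.82% of genes past) and brought the average effect of interleukin-10 and the non-additive contrast past the threshold (adjusted p = 0.047 and 0.038, 1.39% and 1.21% of genes). No member passed with it for IL-10-Fc against control (0.0258%) or the average effect of the CSF1R antibody (0.542%). BF10 and IL-10-Fc tumors were close to control, with differences of 0.16 (95% interval -0.41 to 0.74) and -0.07 (-0.65 to 0.50). The non-additive contrast, which is the BF10-to-aCSF1R difference less the IL-10-Fc-to-control difference, was 1.43 for Klrk1 (SE 0.37, unadjusted p = 0.0027, limma adjusted p = 0.385), where 0.29% of all genes passed and 2.43% had an unadjusted p below 0.05.

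Klrb1c encodes an activating NK receptor of the Nkrp1 family, known as a defining NK antigen of other mouse strains. It was 2.43, 1.37 and 3.32 TPM in the control tumors, 1.82, 1.73 and 1.07 in the IL-10-Fc tumors, 0.537, 0.738 and 0.890 in the aCSF1R tumors and 0.829, 1.54 and 2.42 in the BF10 tumors, in the order of their replicate numbers. The aCSF1R tumors lay below all control and all IL-10-Fc tumors and overlapped BF10 through tumor 3. The overlapping gene Gm44511 was low in the same aCSF1R tumors and in BF10 tumor 3, and the part of shared reads was not tested. The difference from control was -0.93 (SE 0.30, unadjusted p = 0.0107, limma adjusted p = 0.621), and it was -1.03 within the higher-sum libraries and -0.53 within the lower-sum libraries. BF10 against aCSF1R gave 0.55 (SE 0.30, limma adjusted p = 1).

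Ncr1 encodes NKp46, an activating receptor found on NK cells and on some innate lymphoid cells. Its level was 5.79, 4.72 and 6.05 TPM in control, 0.911, 2.38 and 2.81 in IL-10-Fc, 2.44, 2.62 and 11.6 in aCSF1R and 4.93, 3.40 and 3.11 in BF10 tumors, again by replicate number. All IL-10-Fc tumors lay below all control and all BF10 tumors, while the aCSF1R group held the highest value of the series beside 2 values below all control tumors. The difference between IL-10-Fc and control was -1.16 (SE 0.48, unadjusted p = 0.0351, limma adjusted p = 0.738), with -0.86 within the higher-sum and -1.17 within the lower-sum libraries. For BF10 against control it was -0.45 (95% interval -1.51 to 0.61).

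The Ncr1 difference of aCSF1R from control was -0.27 over all libraries (SE 0.48, limma adjusted p = 0.893). It was -0.88 without aCSF1R tumor 8, a higher-sum library, 0.056 without tumor 4 and 0.018 without tumor 6. It was 0.86 within the higher-sum libraries and -0.70 within the lower-sum libraries. Tumor 8 also had the highest summed level of 9 NK cell markers in the series, 38.5 TPM, against 18.4 to 33.5 TPM in the other 11 tumors. That sum is not independent of the members, since Ncr1, Klrb1c, Klrd1 and Klre1 are themselves among those markers. In tumor 8 it included 11.6 TPM of Ncr1 and 10.02 TPM of Klrd1. Klra7, a Ly49 receptor gene of that list with closely similar copies beside it, was 2.72 TPM in tumor 8 and 0.110 to 1.81 TPM elsewhere. Not all of the list was high in tumor 8. Klrb1c was 0.890 TPM there, below the 1.37 to 3.32 TPM of the control tumors. Klre1 was 1.90 TPM there and 2.21 TPM in control 7.

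Klrd1 encodes CD94, which pairs with NKG2A or NKG2C to read the nonclassical class I molecule Qa-1. It was 11.3, 7.69 and 13.5 TPM in control, 8.84, 11.4 and 8.71 in IL-10-Fc, 8.84, 8.28 and 10.02 in aCSF1R and 11.4, 7.53 and 8.46 in BF10 tumors. All groups overlapped one another. The differences over the 6 pairs of groups ran from -0.21 to 0.08 with a standard error of 0.28, and the 95% interval for aCSF1R against control was -0.83 to 0.41.

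Klre1 encodes a lectin-like receptor that can act as an activating or inhibiting partner in NK cells. It ranged from 0.730 TPM in BF10 tumor 7 to 2.21 TPM in control tumor 7, and group means were 1.78 ± 0.445 TPM (control), 1.15 ± 0.262 TPM (IL-10-Fc), 1.36 ± 0.472 TPM (aCSF1R) and 1.02 ± 0.406 TPM (BF10; SD, n = 3). The widest difference was -0.47 for BF10 against control (SE 0.25, limma adjusted p = 0.788). In every group the higher-sum libraries held more Klre1 than the lower-sum ones. The set difference was 0.38 on the log2 scale (limma adjusted p = 0.0176, under 1.5-fold), while the median of all genes between the sets was -0.68.

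Nkg7, which encodes a membrane protein of cytotoxic granules in NK cells and CD8+ T cells, was 7.66, 9.65 and 9.40 TPM in control and 17.2, 16.1 and 10.1 in IL-10-Fc tumors. It was 10.7, 13.9 and 9.04 TPM in aCSF1R and 27.2, 6.64 and 12.7 in BF10 tumors. All IL-10-Fc tumors exceeded all control tumors, and BF10 held both the highest and the lowest value of the series. The difference from control was 0.62 for IL-10-Fc (SE 0.43, limma adjusted p = 0.738) and 0.54 for BF10 (95% interval -0.41 to 1.49). BF10 against control gave -0.31 within the higher-sum libraries (1 BF10 and 2 control tumors) and 0.88 within the lower-sum libraries (2 and 1). The signs thus differed between the sets, each with a group of 1 tumor, and the part of the set was not tested.

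Il2rb was 2.93, 10.4 and 5.63 TPM in control, 8.61, 11.3 and 4.25 in IL-10-Fc, 8.83, 14.6 and 2.47 in aCSF1R and 11.8, 2.76 and 9.73 in BF10 tumors. In every group the higher-sum libraries were the low ones, and the same order held for Nkg7. The set difference was -1.42 for Il2rb (limma adjusted p = 9.79e-05) and -0.65 for Nkg7 (adjusted p = 0.0218), both past the threshold. So were 59.2% of all tested genes, whose median set difference was -0.68, close to that of Nkg7. Mean Il2rb was 3.61 TPM in the 5 higher-sum and 10.7 TPM in the 7 lower-sum libraries. The Il2rb difference from control was 0.35 for IL-10-Fc, 0.28 for aCSF1R and 0.27 for BF10 (SE 0.66 each), and each of these turned negative with the library set as a term (-0.12, -0.19 and -0.21).

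Xcl1 encodes a chemokine of activated NK and CD8+ T cells that draws cross-presenting dendritic cells through the receptor Xcr1. It was 4.21, 3.45 and 2.30 TPM in control, 3.41, 3.92 and 4.96 in IL-10-Fc, 2.67, 1.62 and 5.27 in aCSF1R and 9.04, 4.10 and 5.78 in BF10 tumors. The BF10 tumors held the 2 highest values of the series. The difference was 0.84 against aCSF1R (SE 0.38, unadjusted p = 0.0496, limma adjusted p = 1) and 0.73 against control (95% interval -0.11 to 1.57), and the BF10 group overlapped both. Its receptor gene Xcr1 was at 0.0868 to 0.512 TPM and missed the filter.

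Counting tumors instead of means, for IL-10-Fc against control 2 members (Ncr1 and Nkg7) did not overlap, against 6.53% of all genes. For aCSF1R against control these were 2 members (Klrk1 and Klrb1c) against 5.28%, and for IL-10-Fc against aCSF1R the same pair against 7.49%. Klrk1 alone did not overlap between BF10 and aCSF1R (5.91% of genes), Ncr1 alone between BF10 and IL-10-Fc (2.13%), and no member between BF10 and control (3.53%).

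The 8 genes did not move as 1 block between tumors. With the means of the library sets removed, Pearson's r between members over the 12 libraries ran from -0.56 to 0.76 over 28 pairs. It was above 0.5 for 3 pairs and below 0 for 9 pairs. These are descriptions over libraries that share treatments, and no test was made. The genes whose pattern was most like the mean of the standardized members were Hcst (r = 0.86), Gm27786, Gimap7, Xlr4c and Gmfg (r = 0.82 to 0.86) over 12 libraries. With set means removed, Hcst (r = 0.88) was the only one of these 5 that stayed among the top 5. Hcst encodes DAP10, the adaptor through which NKG2D signals, and was 1.87 to 9.01 TPM in aCSF1R and 5.70 to 19.2 TPM in the other tumors.

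The levels of other cell types moved with some of these results. The summed level of 10 macrophage markers was 83.7 to 259 TPM in the aCSF1R tumors and 1493 to 2289 TPM in the other 9, and the BF10 tumors, at 1766 to 1854 TPM, overlapped control. Klrk1 was low in the same 3 tumors, and so was Klrb1c against control and IL-10-Fc. Over the 12 libraries, Pearson's r with the mean log2 level of those markers was 0.88 for Klrk1 and 0.58 for Klrb1c. With set means removed it was 0.92 and 0.65, and -0.32 to 0.34 for the other members. Those members had their highest r with other marker lists, members left out and set means removed. It was 0.77 (Nkg7) and 0.75 (Xcl1) with neutrophil markers and 0.70 (Klrd1) and 0.66 (Il2rb) with T cell markers. With NK cell markers it was 0.73 (Ncr1) and 0.45 (Klre1), while Klrk1 and Klrb1c had r of -0.53 and -0.41 there. Nkg7 also had r = 0.74 with T cell markers. Among the 3 aCSF1R tumors alone, tumor 8 had the least macrophage marker RNA, 83.7 TPM, and the most Klrk1 and Klrb1c. Klrk1 ran only from 2.80 to 3.40 TPM there. Tumor 8 was also the 1 higher-sum library of that group, so library set and macrophage level cannot be told apart in it. Summed T cell markers were 39.6 to 72.8 TPM in aCSF1R, 50.7 to 107 in control, 67.96 to 96.5 in IL-10-Fc and 41.8 to 116 in BF10 tumors, and NK cell markers were 18.8 to 38.5, 20.4 to 33.5, 18.4 to 25.5 and 20.4 to 26.9 TPM. Both sums overlapped between all groups, and the NK cell sum includes the members Ncr1, Klrb1c, Klrd1 and Klre1. The part of macrophages, T cells or the library sets in the member differences was not tested.

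**Figure D3:**
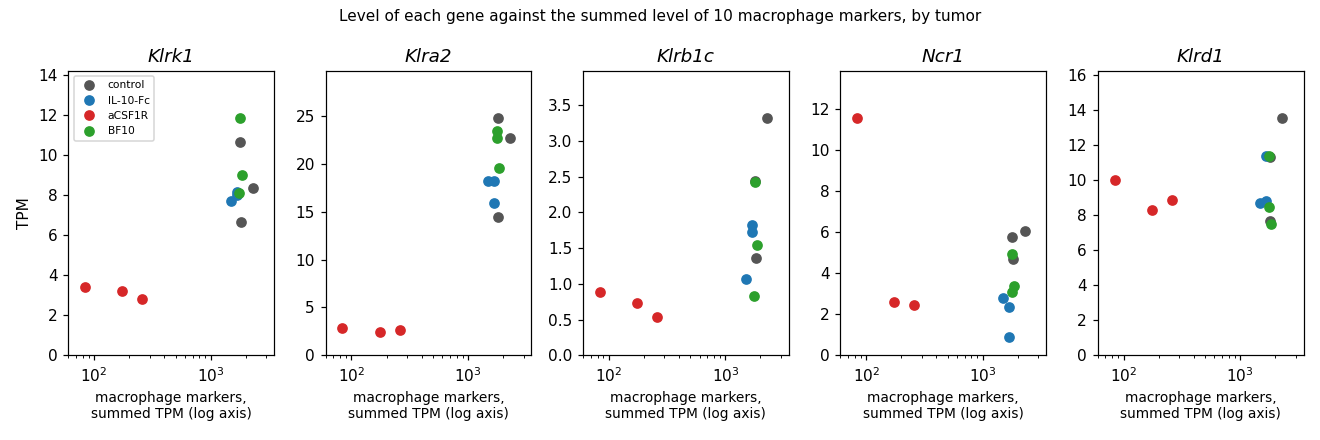
TPM of Klrk1, Klra2, Klrb1c, Ncr1 and Klrd1 (vertical axes) against the summed TPM of 10 macrophage markers (horizontal log axes), with 1 point per tumor coloured by group. The 3 aCSF1R tumors stand apart at 83.7 to 259 TPM, with the lowest Klrk1 and Klra2 values, while their Klrd1 values lie within those of the other tumors.

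The defining NK markers were present but low. Eomes, a T-box factor of mature NK cells, was 0.410 to 1.46 TPM, and Klrc1, which encodes NKG2A, was 2.92 to 10.8 TPM. Klra8, a Ly49 receptor gene that Balb/c mice are known to lack, was at 0 in 11 of 12 libraries, and Klra4 did not exceed 0.0651 TPM. Some members are also expressed by T cells (Klrk1, Klrd1, Nkg7, Xcl1 and Il2rb), so their levels in bulk tumor are not those of NK cells alone. Klrk1 and Klrb1c also varied with the macrophage markers (r = 0.92 and 0.65 with set means removed). Which cells the RNA came from was not measured.

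Of the other receptor genes of the NK complex, a list of 23 that leaves out the 4 members of the complex, 14 passed the filter. In aCSF1R against control 2 of the 14 passed the threshold, both lower, beside 0.568% of all genes. By sign alone, 12 were lower and 2 higher. Klra2, an inhibitory Ly49 family gene also known from myeloid cells, was 14.4 to 24.7 TPM in control and 2.43 to 2.91 TPM in aCSF1R tumors, a difference of -2.53 (SE 0.26, limma adjusted p = 0.00111). Klrb1b, an inhibitory receptor of the Nkrp1 family, was 5.46 to 12.1 TPM in control and 1.10 to 1.56 TPM in aCSF1R tumors, a difference of -2.10 (adjusted p = 0.0365). The Klra2 call held without any single library, while that of Klrb1b was kept only without control 5, BF10 3 or BF10 7 and had an adjusted p of up to 0.194 without control 7. The median of the 14 genes was -0.16, beside 0.24 for all genes. With BF10 against aCSF1R, Klra2 was the 1 gene of the 14 past the threshold, beside 0.735% of all genes, while 5 were higher and 9 lower by sign. It was higher by 2.64 (limma adjusted p = 0.00101), at 19.5 to 23.4 TPM in BF10 tumors. In IL-10-Fc against aCSF1R Klra2 also passed, higher by 2.33, beside 0.542% of all genes. It passed for the interleukin-10 average effect (1.22) and the non-additive contrast (2.84) too. Those 2 calls were lost in 11 and 6 of the 12 fits without 1 library.

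Of 18 adaptor and coreceptor genes of NK cells, 15 were tested. In aCSF1R against control 4 passed the threshold, all lower, beside 0.568% of all genes. By sign alone, 9 were lower and 6 higher. Fcgr3, the low-affinity Fc receptor that triggers antibody-dependent killing, fell by 2.42 (SE 0.21, limma adjusted p = 0.000459). Fcer1g, the Fc receptor gamma chain, fell by 2.31 (adjusted p = 0.000685), and Tyrobp, which encodes the adaptor DAP12, fell by 2.60 (adjusted p = 0.00905). These 3 genes are also highly expressed by macrophages, and all 3 were higher in BF10 than in aCSF1R tumors, by 2.34, 2.53 and 2.43 (limma adjusted p from 0.000442 to 0.0132). In IL-10-Fc against aCSF1R the same 3 were higher by 2.14, 2.26 and 2.20, also past the threshold, beside 0.542% of all genes. Sh2d1b1, which encodes the signalling adaptor EAT-2, fell by 1.52 in aCSF1R against control (adjusted p = 0.027), with 2.79 to 3.85 TPM in control and 0.504 to 0.564 TPM in aCSF1R tumors. In these 3 pairs of groups the calls of Fcgr3 and Fcer1g held without any single library. Both also passed for the interleukin-10 average effect, at 1.03 and 1.25, and the CSF1R antibody average effect, at -1.11 and -1.02. The first calls were lost in 12 and 7 of the 12 fits without 1 library, and the second in 9 and 11. Their non-additive contrasts, 2.62 and 2.58, passed in all 12. Against control, Tyrobp lost its call without control 4, control 7 or aCSF1R 6 (limma adjusted p = 0.0531 to 0.0629), and Sh2d1b1 without control 4 or 7, any single aCSF1R tumor, IL-10-Fc 4 or BF10 7 (adjusted p = 0.0522 to 0.147). Against aCSF1R, the BF10 call of Tyrobp was lost without aCSF1R 4 or 6 or BF10 3 or 6 (adjusted p = 0.0526 to 0.0819), and its IL-10-Fc call in 8 of the 12 fits. The median of the 15 genes was -0.17. Hcst, in this list, differed by -1.19 (SE 0.50, limma adjusted p = 0.893).

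**Figure D4:**
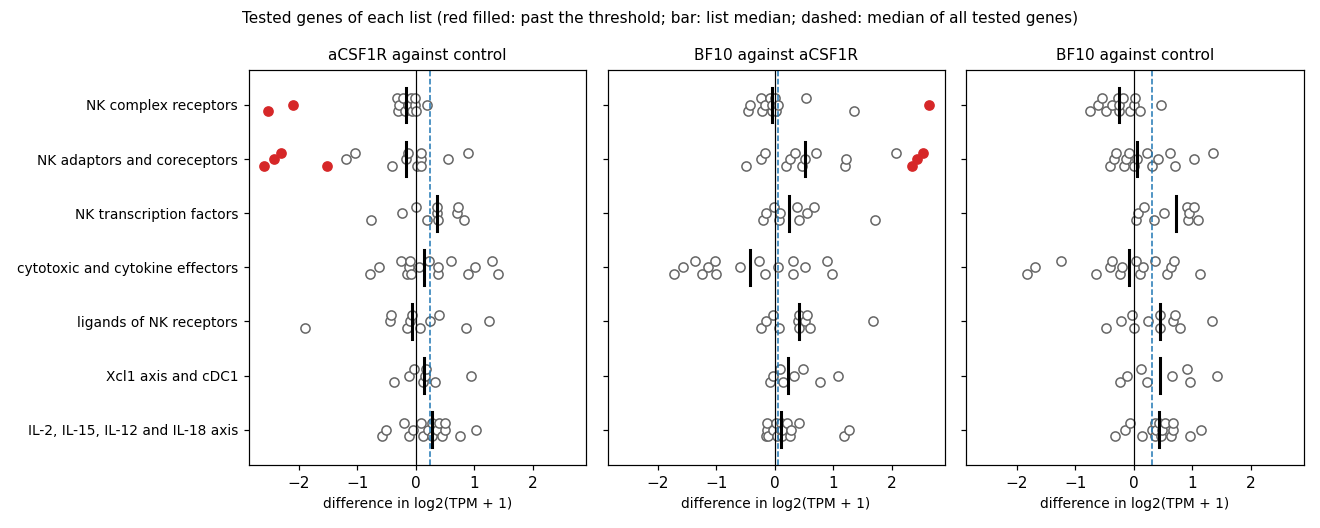
Difference in log2(TPM + 1) (horizontal axes) of each tested gene of 7 lists (rows) in 3 comparisons, with red points past the threshold and a bar at the list median. The 6 red points of aCSF1R against control are Klra2, Klrb1b, Fcgr3, Fcer1g, Tyrobp and Sh2d1b1, and the 4 of BF10 against aCSF1R are Klra2, Fcer1g, Fcgr3 and Tyrobp.

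In the other 5 lists no gene passed the threshold in any of the 9 comparisons (limma), beside 0% to 0.735% of all genes. They held 10 tested transcription factors, 16 cytotoxic and cytokine effectors, 11 ligands of NK receptors, 8 genes of the Xcl1 and dendritic cell axis and 17 genes of the interleukin-2, interleukin-15, interleukin-12 and interleukin-18 axis. Of their 558 tests 49 had an unadjusted p below 0.05, beside 0.271% to 4.43% of all genes by comparison. The effectors held 31 of the 49, in 144 tests. The counts were 3 of 90 (factors), 7 of 99 (ligands), 6 of 72 (Xcl1 axis) and 2 of 153 (interleukin axis). The 9 comparisons share libraries, so these tests are not independent. Among the factors, the most abundant were Id2, at 64.2 to 115 TPM with a difference of 0.18 between BF10 and control (SE 0.22), and Gata3, at 10.4 to 60.5 TPM. Gzmf and Gzmg, granzyme genes and the most abundant effectors, had differences of -2.13 (SE 0.70) and -2.75 (SE 0.72) in IL-10-Fc against control, both with a limma adjusted p of 0.738. Gzmg was 5.97 to 13.4 TPM in IL-10-Fc and 47.4 to 143 TPM in control tumors. It was 9.31 to 36.8 TPM in BF10 and 25.4 to 177 TPM in aCSF1R tumors. Gzmf was 11.6 to 44.7 TPM in BF10 and 49.6 to 156 TPM in control tumors, so BF10 was also below control for both.

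H2-T23, which encodes the Qa-1 ligand of the Klrd1 receptor, was 48.1 to 78.1 TPM in the 5 higher-sum and 211 to 447 TPM in the 7 lower-sum libraries. Clec2d, whose product is the ligand of the receptor encoded by Klrb1b, was 30.6 to 75.6 TPM, with a difference of 0.55 for BF10 against aCSF1R (SE 0.32, limma adjusted p = 1). Around Xcl1, Cxcl9, a chemokine that recruits NK and T cells, was 43.7 to 125 TPM in control and 124 to 193 TPM in IL-10-Fc tumors, a difference of 0.94 (SE 0.37, limma adjusted p = 0.738). Cd24a, at 153 to 214 TPM, differed by at most 0.25 from control in any group. Jak1 and Jak3, kinases downstream of Il2rb, were 25.5 to 70.7 and 15.1 to 71.4 TPM, and differed from control by at most 0.57 (Jak3 in IL-10-Fc, SE 0.61).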

How the data were processed

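RNA of 12 bulk 4T1 tumors was sequenced by the authors from stranded polyadenylated libraries on an Illumina NextSeq and aligned to mm10 with the annotation GRCm38.101, per the study's methods. The submitters' processing notes name STAR 2.7.5a, RSEM 1.3.3 and DESeq2 1.28.0. The table the authors deposited holds FPKM with 2 decimals, that is fragments relative to transcript length and library size. Another 4 deposited tables hold the authors' own DESeq2 comparisons (log2 fold changes, standard errors, p-values and mean counts) and were not used. 0 columns were left unmatched to a sample.

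FPKM was rescaled here to TPM. Genes with TPM of at least 1 in at least 3 libraries were tested on log2(TPM + 1), with a pseudocount of 1, by limma 3.58.1 (eBayes with trend, R 4.3.3), with 1 mean per group over all 12 libraries and 8 residual degrees of freedom. Count models were not fitted, as no counts were used. The threshold (adjusted p under 0.05, difference of 1.5-fold or more) follows the study's methods. The pipeline was tested on simulated data. Replicates are the numbered tumor samples of the titles. The labels do not say that each came from its own mouse, so p-values measure the spread between these samples. The numbers recur in only some groups and did not pair the libraries.

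The 8 members are named in every comparison. From each list every gene past the threshold is named, up to 3 per comparison by adjusted p, or else the 2 with the highest mean TPM. The 5 genes most like the members are named by Pearson's r. Sh2d1b1, Klra4, Klra7, Klra8, Klrc1, Eomes and Xcr1 fall outside the rule and were chosen after their values were seen. The members and lists were chosen with earlier results of these data known. The alternatives are named in the closing section. Positions come from GENCODE M21 (GRCm38). The read depth is an estimate from gene length and the smallest values, and errors derived from it cover counting error only.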

Additional observations from a re-analysis of the deposited data

Results flagged for a closer look

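Klrb1c and Klrk1 had opposite signs under matched contrasts in every treated tumor, each set against the mean of its reference group. Only the 8 members were screened for this, and the share of all genes with such signs was not measured. For Klrb1c, IL-10-Fc against control gave -0.38 and BF10 against aCSF1R gave 0.55 on the log2(TPM + 1) scale, and the non-additive contrast, which tests the difference between them, was 0.93 (unadjusted p = 0.0525, limma adjusted p = 0.975). For Klrk1, IL-10-Fc against control gave -0.074 and BF10 against aCSF1R gave 1.35. Likewise aCSF1R against control gave -1.19 and BF10 against IL-10-Fc gave 0.24 for Klrk1, with the same non-additive contrast for both pairs, 1.43 (limma adjusted p = 0.385). The IL-10-Fc signs were not stable. Within the lower-sum libraries, IL-10-Fc against control gave 0.23 for Klrb1c and 0.24 for Klrk1, and without control 4 it gave 0.079 for Klrk1. Groups of 3 tumors are too small for a test of single outlying tumors.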

How the results depend on the processing

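The count of NK cell genes past the threshold was 1 for BF10 against aCSF1R (Klrk1) and 0 in the other 8 comparisons. The count of 1 became 0 with FPKM left unrescaled, with median-of-ratios scaling, with no filter, with the replicate number as a block, in the lower-sum libraries only and in the libraries of the comparison only, and was 0 to 1 when single libraries were left out. A lower pseudocount (0.1), a filter in at least 6 libraries and no minimum fold left the count in all 9 comparisons as it was. No paired meaning could be given to the block, since the deviations of the 7 same-numbered pairs correlated at -0.66 to 0.42. With the library set as a term the count was 1 (Klrk1) for aCSF1R against control, IL-10-Fc against aCSF1R, the interleukin-10 average effect and the non-additive contrast. Array weights gave 3, 3, 4, 3, 2, 2 and 5 members for BF10, IL-10-Fc and aCSF1R against control, BF10 and IL-10-Fc against aCSF1R, the interleukin-10 average effect and the non-additive contrast, with 8967 to 9898 of all genes called against control. These weights were estimated from libraries of 2 sets. Of the 5 genes most like the members, 1 stayed with set means removed. Over all genes, 114 passed for BF10 and 84 for IL-10-Fc against aCSF1R, and 88 for aCSF1R against control. These became 54 to 108, 24 to 92 and 55 to 91 without single libraries, 437, 330 and 312 with the set term, and 0, 12 and 4 in the libraries of the comparison only. The set term moved the interleukin-10 average effect from 22 to 216 genes, the CSF1R antibody average effect from 17 to 84 and the non-additive contrast from 45 to 188.

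Signs turned for some members that had not passed. FPKM without rescaling gave Klrk1 -0.0148 for BF10 against control. Median-of-ratios scaling gave Klrk1 -0.19 and Il2rb -0.0607 for BF10 against control, and Xcl1 -0.092 and Il2rb -0.0192 for IL-10-Fc against control. The replicate block gave Ncr1 0.22 and Nkg7 -0.41 for BF10 against aCSF1R. The set term gave Il2rb -0.21, -0.12 and -0.19 for BF10, IL-10-Fc and aCSF1R against control. The lower-sum libraries alone gave Klrb1c 0.081 and Klrd1 0.32 for BF10, Klrb1c 0.23, Klrd1 0.35, Klrk1 0.24 and Il2rb -0.073 for IL-10-Fc and Klrd1 0.14 for aCSF1R against control, and Ncr1 0.48 and Klrd1 0.18 for BF10 against aCSF1R. Array weights gave Ncr1 0.32 and Klrd1 0.044 for BF10 against aCSF1R. Over the fits without single libraries, which also turned signs, the differences from control were -0.12 to 0.81 (Il2rb, BF10), -0.22 to 0.079 (Klrk1, IL-10-Fc), -0.030 to 0.74 (Il2rb, IL-10-Fc), -0.34 to 0.030 (Klrd1, IL-10-Fc), -0.45 to 0.18 (Xcl1, aCSF1R), -0.19 to 0.89 (Il2rb, aCSF1R) and -0.88 to 0.056 (Ncr1, aCSF1R). Those of BF10 from aCSF1R were -0.62 to 0.53 (Il2rb), -0.51 to 0.43 (Ncr1), -0.16 to 0.11 (Klrd1) and -0.24 to 0.71 (Nkg7). The cause was not tested.

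The p-values rest on 3 tumors per group and 8 residual degrees of freedom. Members with a lowest value of 14 to 28 estimated reads (Klrb1c, Xcl1, Klre1 and Ncr1) carry the largest counting error. The library sets cross the treatments unevenly, with 2 of 3 control libraries in the higher-sum set.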
